A study of Rattus norvegicus with 3 samples.

Results

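The bone morphogenetic protein (BMP) and transforming growth factor beta (TGF-beta) signalling genes were described in RNA of rat spinal commissural neurons, which send their axons across the ventral midline. They were chosen by gene symbol: the Bmp, Gdf and Tgfb ligand names, the Bmpr, Acvr and Tgfbr receptor names, the Smads, Id1 to Id4, Nog, Chrd, Grem1, Bambi, Fst, Smurf1 and Smurf2. The rule found 57 genes among the 26353 entries of the deposited table. The 3 libraries form 1 group, with polyadenylated RNA from dissociated cells of embryos of embryonic day 13 after 2 days in culture. No treatment or genotype is given in the labels, nor a strain, and there is no control group. Levels are FPKM as deposited, a unit defined as fragments scaled to transcript length and to mapped fragments. How they were computed is not given, so comparisons between genes rest on a length scaling that could not be checked.

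Ligands of this family are secreted dimers that bring together a type I and a type II receptor kinase, and the type I kinase phosphorylates the receptor-regulated Smads. BMP-type receptors act mainly on Smad1, Smad5 and Smad9, and TGF-beta and activin-type receptors on Smad2 and Smad3, and both sets enter the nucleus with Smad4. In the embryonic spinal cord, BMPs from the roof plate pattern the dorsal neuron classes, and in rodents Bmp7 and Gdf7 from the roof plate also repel the axons of commissural neurons.

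Marker genes of the labelled cell type and of others were examined. All 6 pan-neuronal and all 4 commissural axon markers lay above 1 FPKM by the limma test described in the next paragraph. So did all 6 neural progenitor markers, whose summed level was 947 to 1203 FPKM. Most of that sum came from Fabp7 (mean 564 FPKM) and Vim (398 FPKM), while Nes averaged 3.15 FPKM. Over all tested entries 63.7% passed, and over the tested markers of all lists 62.5%, so passing alone does not mark a cell type. The median was 308 FPKM for pan-neuronal, 52.0 for commissural and 30.7 for progenitor markers, against 4.81 over all tested entries. Of 6 macrophage markers 3 passed (summed level 12.0 to 19.6 FPKM) and of 6 fibroblast and mural markers 1 (3.13 to 4.13 FPKM). Of 5 roof plate markers 3 passed (8.65 to 11.2 FPKM), with Msx1 the highest at a mean of 4.66 FPKM. Lmx1a (0.163 FPKM) and Rspo1 (0.123 FPKM) of that list did not pass. Of 4 floor plate markers 2 passed (18.5 to 21.1 FPKM, nearly all from Ntn1, with Foxa2 listed at 0). Of 5 endothelial markers 0 passed (0.400 to 0.530 FPKM). The endothelial count was also 0 at an unadjusted p under 0.05. Which cells a transcript came from cannot be read from whole cultures, and fewer cells of a type and less RNA per cell cannot be told apart. The labels do not state whether separate cultures or animals stand behind the libraries; p-values therefore measure variation among these 3 samples alone, possibly of technical origin.

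A level above 1 FPKM was called by limma's one-sided test across all entries with a value above 0 in any library, with the Benjamini-Hochberg (BH) adjustment of its p-values. Of the 57 genes, 34 passed, 21 were tested and did not pass, and 2 (Bmp10 and Bmp15) were listed at 0 in every library. The 34 are 61.8% of the 55 tested, against 63.7% of all 17611 tested entries, a share near that of the whole table. The median was 3.16 FPKM over the 55 tested genes and 4.81 FPKM over all tested entries. The levels were split by role. Of the 19 signalling receptors and Smads 15 passed, and all 4 Id genes and both Smurf ligases did, while of the 22 ligands 6 did. The count of 34 depends on the scale: with each library rescaled to a sum of 1000000, most of which 35 to 43 entries above 10000 FPKM hold, 5 genes passed (Id4, Acvr2a, Id3, Id2 and Smad5).

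**Figure D1:**
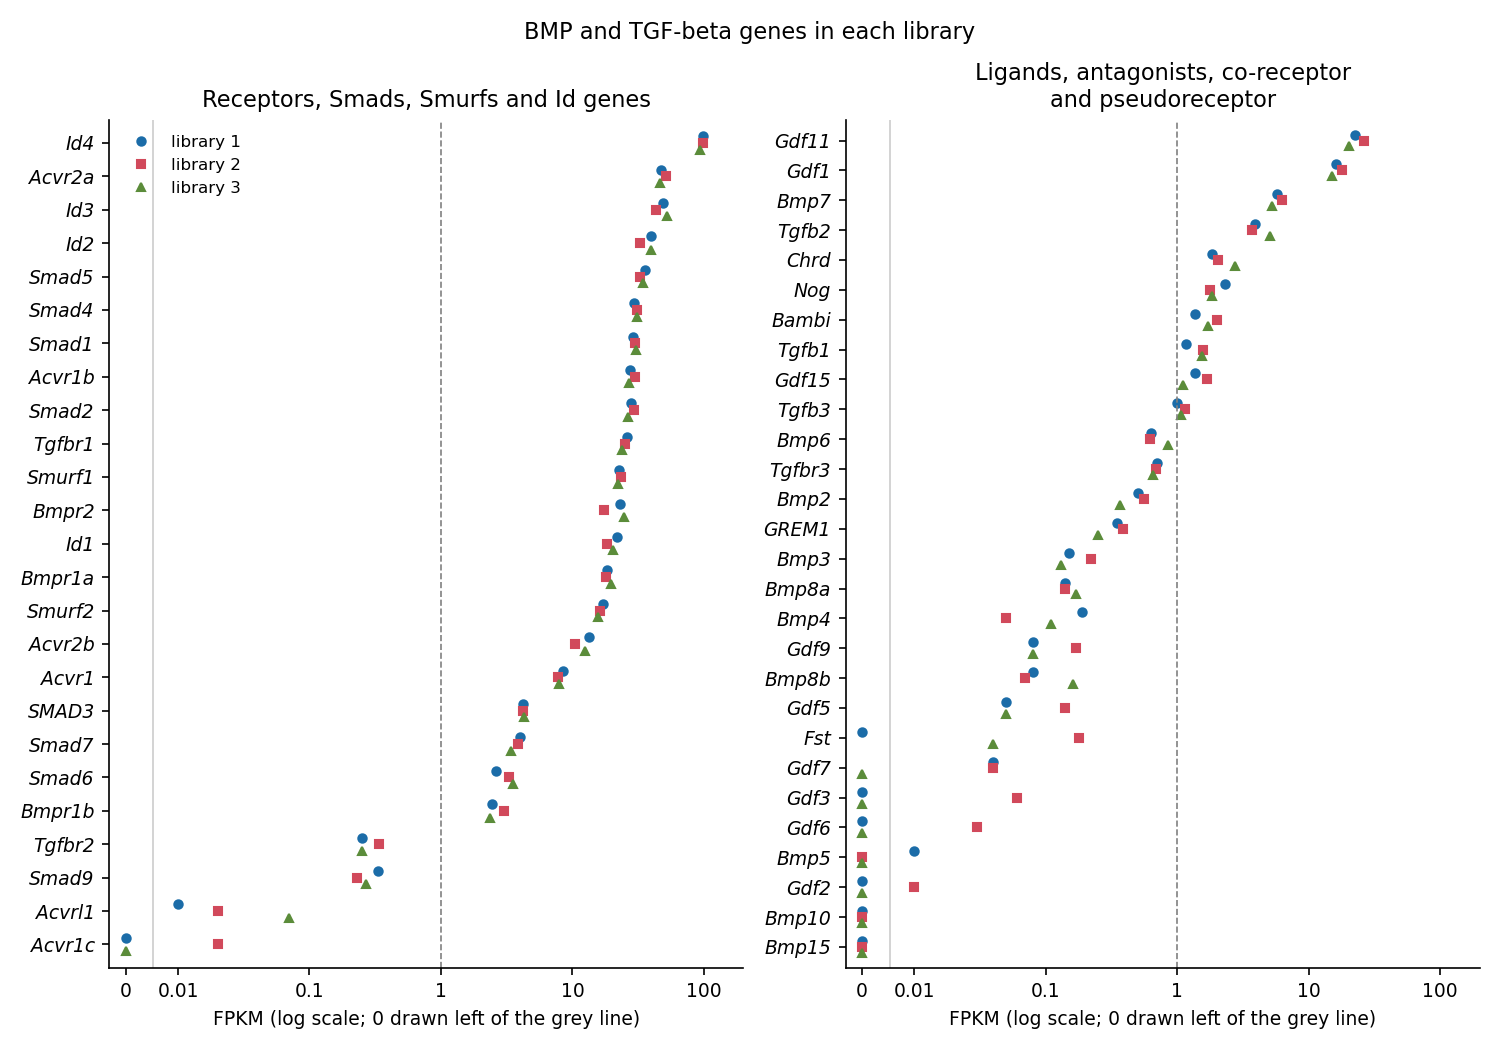
FPKM of each receptor, Smad, Smurf and Id gene (left) and each ligand, antagonist, co-receptor and pseudoreceptor (right) in libraries 1, 2 and 3, on a log axis with values of 0 drawn left of the grey line and 1 FPKM dashed. Most genes on the left lie right of the dashed line, up to Id4 at 94.3 to 99.1 FPKM. Of the 22 ligands, 16 were not called above 1 FPKM, among them Tgfb3, whose values are 1.00 to 1.14 FPKM.

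Among the BMP ligands, Bmp7 was the 1 of 10 above 1 FPKM. Bmp7, a ligand that can pair with other BMPs, had 5.75, 6.31 and 5.26 FPKM in libraries 1, 2 and 3 (mean 5.77 ± 0.525, SD, n = 3). It made up 77.0% ± 2.29 of the summed FPKM of the 10 BMP ligands. Bmp6, a close relative of Bmp7, had 0.630, 0.620 and 0.850 FPKM. Bmp7 exceeded Bmp6 by 7.38-fold (95% interval 5.90 to 9.25, limma on the log2 ratio of FPKM + 0.1, BH-adjusted p = 9.79e-07, higher in 3 of 3 libraries). Fold differences on this scale understate those of low genes.

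The other BMP ligands were lower. Bmp2, which like Bmp4 drives dorsal fates, had 0.50, 0.560 and 0.370 FPKM. Bmp4 had 0.190, 0.05 and 0.110 FPKM. These values lie below 1 FPKM in each library, and those of Bmp4 differ by several times between libraries. Bmp3 averaged 0.167 ± 0.0473, Bmp8a 0.15 ± 0.0173 and Bmp8b 0.103 ± 0.0493 FPKM, and Bmp5 was listed at 0.01, 0 and 0. Bmp8a and Bmp8b are close copies of each other and can share reads, so their separate values are uncertain. Bmp1 carries the family's name but encodes a protease that cuts procollagen and the antagonist chordin; it had 13.4, 12.9 and 14.2 FPKM, above 1 FPKM in limma's test (BH-adjusted p = 7.13e-11).

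Of the 9 growth differentiation factors, Gdf11, Gdf1 and Gdf15 passed. Gdf11, a ligand of activin receptors that in mouse sets the timing of spinal neurogenesis, had 22.6, 26.1 and 20.2 FPKM and was the highest of the 22 ligands, at 23.0 ± 2.99 FPKM. Gdf1, a partner of Nodal in early embryos, had 16.2, 18.1 and 14.9 FPKM. Gdf11 exceeded Gdf1 by 1.39-fold (1.22 to 1.59, limma, BH-adjusted p = 7.43e-04, 3 of 3 libraries), but the test against a margin of 1.5-fold did not pass.

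The value of Gdf1 cannot be given to Gdf1 alone. In the RefSeq annotation of assembly GRCr8, Gdf1 and Cers1, a ceramide synthase gene, cover the same span. Cers1 had 16.7, 17.3 and 14.3 FPKM in the deposited table, close to Gdf1 in each library, and the treatment of such shared positions is not given in the sources used here. In GRCr8, 10 of the 57 genes overlap a protein-coding gene. The share over all genes was not computed, so this count is not read as high or low. Among the 10 are Gdf1 with Upf1 (24.4 FPKM), Acvr2a with Orc4 (20.1 FPKM), Bmp8b with Ppie (18.7 FPKM) and Gdf9 with Uqcrq (266 FPKM). Of all these overlaps, only that of Gdf1 and Cers1 is of an identical span. Strand and exons were not compared, so how far the other overlaps affect the values is not known.

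Gdf15, a stress-induced factor, had 1.37, 1.68 and 1.1 FPKM and passed (limma, BH-adjusted p = 0.0190), but not without library 2 (limma, BH-adjusted p = 0.104). The roof plate ligand Gdf7 was listed at 0.04, 0.04 and 0 FPKM. Gdf9 averaged 0.110 ± 0.0520 and Gdf5 0.0800 ± 0.0520 FPKM. Gdf3 and Gdf6 were listed at 0 in libraries 1 and 3 and at 0.06 and 0.03 in library 2, and Gdf2 at 0, 0.01 and 0. The symbol Gdf10 matched no entry and was not analysed here.

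All 3 TGF-beta ligands lay below the median of tested entries. Tgfb2 had 3.90, 3.69 and 5.09 FPKM and was the highest, exceeding Tgfb1 by 2.83-fold (2.33 to 3.44, limma, BH-adjusted p = 1.57e-05, 3 of 3 libraries) and Tgfb3 by 3.67-fold (3.02 to 4.45). Tgfb1, which microglia and many other cells make, had 1.17, 1.57 and 1.54 FPKM and passed the level of 1 FPKM (limma, BH-adjusted p = 0.00802), but not without library 2 (limma, BH-adjusted p = 0.0611). The summed macrophage markers, like Tgfb1, were lowest in library 1, at 12.0 FPKM against 19.6 and 18.1 in libraries 2 and 3. The part of these cells in the Tgfb1 level was not tested. Tgfb3 had 1.00, 1.14 and 1.07 FPKM and did not pass (limma, BH-adjusted p = 0.406). Tgfb1 exceeded Tgfb3 by 1.30-fold (1.12 to 1.5, limma, BH-adjusted p = 0.00530), a call lost without library 2 and against a difference of at least 1.5-fold.

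Of the 4 extracellular antagonists that the symbol rule names, 2 lay above 1 FPKM. Chrd (chordin) had 1.85, 2.05 and 2.73 FPKM and Nog (noggin) 2.31, 1.78 and 1.83 FPKM, and both passed. The ratio of Chrd to Nog was 1.11-fold (0.850 to 1.44, limma, BH-adjusted p = 0.398), with Chrd higher in 2 of 3 libraries. Without library 1, in which Nog was the higher, the log2 ratio was 0.37 (limma, BH-adjusted p = 0.0178). The variance of that fit comes largely from the other pairs. Grem1 (gremlin, spelled GREM1 in the table) had 0.330 ± 0.0721 FPKM, and Fst (follistatin, which binds activins) 0, 0.18 and 0.04. Bambi, a membrane protein like a type I receptor without its kinase, had 1.36, 2.01 and 1.72 FPKM and passed (limma, BH-adjusted p = 9.56e-04). Bmpr1a exceeded Bambi by 10.6-fold (8.70 to 12.9) and Tgfbr1 exceeded it by 14.1-fold (11.5 to 17.4).

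Of the 7 type I receptors 5 lay above 1 FPKM. The activin receptor Acvr1b had 27.6, 29.9 and 26.9 FPKM, the TGF-beta receptor Tgfbr1 26.1, 24.9 and 24.0 FPKM, and the BMP receptor Bmpr1a 18.4, 18.2 and 19.6 FPKM. In each library Acvr1b was the highest and Bmpr1a the lowest of these. Acvr1b and Tgfbr1 did not differ past the threshold (1.12-fold, 0.981 to 1.28, limma, BH-adjusted p = 0.0954). Tgfbr1 exceeded Bmpr1a by 1.34-fold (1.16 to 1.53, limma, BH-adjusted p = 0.00223, 3 of 3 libraries), but not past the threshold without library 2 or against a difference of at least 1.5-fold.

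The remaining BMP receptors of type I were lower. Acvr1, which BMPs and activins bind, had 8.46, 7.78 and 7.97 FPKM. Bmpr1b, a BMP receptor that in mouse is needed for the repulsion of commissural axons from the roof plate, had 2.44, 3.04 and 2.38 FPKM. The groups of values do not overlap, and Bmpr1a exceeded Acvr1 by 2.30-fold (2.01 to 2.63, limma, BH-adjusted p = 3.64e-06) and Bmpr1b by 6.95-fold (5.82 to 8.30, limma, BH-adjusted p = 3.48e-07), each in 3 of 3 libraries. Acvrl1, known from endothelium, was listed at 0.01, 0.02 and 0.07 FPKM and Acvr1c at 0, 0.02 and 0.

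Among the type II receptors, Acvr2a was the highest, with 47.4, 51.9 and 46.7 FPKM, a level above that of 90.6% of tested entries. It binds activins, Gdf11 and several BMPs. Bmpr2, the type II receptor specific to BMPs, had 23.0, 17.5 and 24.5 FPKM, and Acvr2b, a relative of Acvr2a, had 13.4, 10.4 and 12.5 FPKM. The order Acvr2a, Bmpr2, Acvr2b was the same in every library. Acvr2a exceeded Bmpr2 by 2.26-fold (1.81 to 2.82, limma, BH-adjusted p = 1.30e-04), and Bmpr2 exceeded Acvr2b by 1.78-fold (1.54 to 2.05, limma, BH-adjusted p = 4.54e-05).

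Tgfbr2, the type II receptor that binds TGF-beta, had 0.250, 0.340 and 0.250 FPKM, and its co-receptor Tgfbr3 (betaglycan) 0.700, 0.690 and 0.650 FPKM. Neither passed. Tgfbr1, the type I partner of Tgfbr2, was 73.4 to 105 times as high as Tgfbr2 in single libraries, by FPKM without the added 0.1. Bmpr2 and Bmpr1a, type II and type I for BMPs, did not differ past the threshold (1.15-fold, 0.964 to 1.36, limma, BH-adjusted p = 0.112). Bmpr2 was the higher in 2 of 3 libraries. Without library 2, in which Bmpr1a was the higher, the log2 ratio of Bmpr2 to Bmpr1a was 0.32 (limma, BH-adjusted p = 0.0148). The variance of that fit comes largely from the other pairs. The ratio of Tgfbr1 to Tgfbr2 was not tested, since Tgfbr2 lay under the minimum of 0.5 FPKM set for pairs. Summed over all members of a type, type I receptors had 82.6 ± 1.5 FPKM and type II receptors 82.7 ± 2.29 FPKM.

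**Figure D2:**
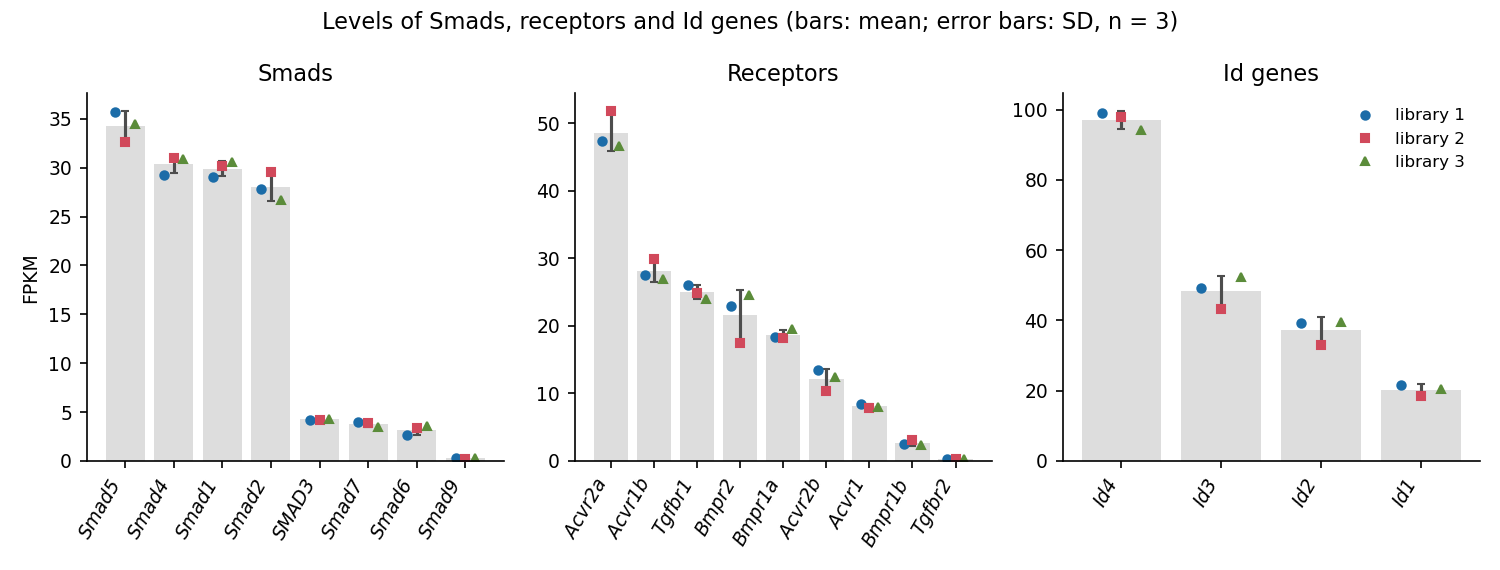
FPKM of the Smads, the receptors above 0.1 FPKM and the Id genes; bars are means, error bars SD (n = 3), and points the 3 libraries. Smad5, Smad4, Smad1 and Smad2 stand between 26.7 and 35.7 FPKM in all libraries, the other Smads at most at 4.26, and Id4 is the highest Id gene in each library.

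Of the 8 Smads 7 passed, and 4 of them lay between 26.7 and 35.7 FPKM in every library. Smad5 had 35.7, 32.6 and 34.5 FPKM, Smad1 29.0, 30.1 and 30.5 FPKM, Smad2 27.8, 29.6 and 26.7 FPKM, and Smad4, the partner shared by both branches, 29.3, 30.9 and 30.8 FPKM. Smad4 did not differ past the threshold from Smad1 (1.02-fold, 0.894 to 1.15, limma, BH-adjusted p = 0.788), from Smad2 (1.08-fold, 0.948 to 1.24) or from Smad5, which was 1.13-fold higher than Smad4 (0.983 to 1.29). Smad5 and Smad1 did not differ past it either (1.14-fold, 1.00 to 1.31, limma, BH-adjusted p = 0.0616).

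Within each branch 1 receptor-regulated Smad was far below its relatives. Smad3 (spelled SMAD3 in the table) had 4.23, 4.23 and 4.26 FPKM, and Smad2 exceeded it by 6.47-fold (5.67 to 7.39, limma, BH-adjusted p = 4.58e-08, 3 of 3 libraries). Smad9 of the BMP branch had 0.330, 0.230 and 0.270 FPKM and did not pass. The summed FPKM of Smad1, Smad5 and Smad9 was 65, 62.9 and 65.3, and that of Smad2 and Smad3 was 32.0, 33.8 and 30.9, a ratio of 2.00 ± 0.127 (SD, n = 3). The sums do not overlap; an exact sign-flip test over 3 libraries cannot go below p = 0.25 and none is given.

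The inhibitory Smads, which BMP and TGF-beta signals themselves induce in many cells, were expressed at a few FPKM. Smad7, which blocks both branches, had 4.01, 3.89 and 3.43 FPKM. Smad6, which blocks mainly the BMP branch, had 2.62, 3.32 and 3.53 FPKM. They did not differ past the threshold (1.2-fold, 0.966 to 1.48, limma, BH-adjusted p = 0.0965), and Smad6 was the higher in library 3. Without that library the log2 ratio of Smad7 to Smad6 was 0.41 (limma, BH-adjusted p = 0.00929), in a fit whose variance comes largely from the other pairs. Smad4 exceeded Smad7 by 7.87-fold (6.79 to 9.12) and Smad6 by 9.42-fold (8.06 to 11). The ubiquitin ligases Smurf1 and Smurf2, which mark Smads and receptors for degradation, had 22.6, 23.3 and 22.1 FPKM and 17.2, 16.1 and 15.7 FPKM. Smurf1 exceeded Smurf2 by 1.39-fold (1.22 to 1.58, limma, BH-adjusted p = 8.61e-04, 3 of 3 libraries), a call lost against a difference of at least 1.5-fold.

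The Id genes encode helix-loop-helix proteins without a DNA-binding region, which hold back proneural factors, and they are direct targets of BMP Smads in many cells. Id4 had 99.1, 98.0 and 94.3 FPKM and was the highest of all 57 genes, above 95.5% of tested entries. Id3 had 49.2, 43.4 and 52.2 FPKM, Id2 39.3, 32.9 and 39.6 FPKM and Id1 21.7, 18.5 and 20.4 FPKM. The order Id4, Id3, Id2, Id1 held in every library. Each neighbour in that order differed past the threshold: Id4 exceeded Id3 by 2.02-fold (1.73 to 2.34, limma, BH-adjusted p = 2.00e-05), Id3 exceeded Id2 by 1.29-fold (1.14 to 1.47, limma, BH-adjusted p = 0.00275) and Id2 exceeded Id1 by 1.84-fold (1.61 to 2.10, limma, BH-adjusted p = 2.00e-05). The step from Id3 to Id2 was lost against a difference of at least 1.5-fold. Id4 made up 47.9% ± 2.65 of the summed Id level. Neural progenitors also express Id genes, and their markers passed 1 FPKM in these cultures, at widely differing levels (above). The part of progenitors in the Id levels was not tested.

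The promoters of the highest and the lowest Id gene are shown from RefSeq (GRCr8), 250 bases before to 50 after the annotated start. Regions farther from the start were not searched for Smad motifs. Capitals mark the Smad box GTCT, read on both strands (GTCT or AGAC), and the GC-rich motif GGCGCC, which is its own reverse complement; the motifs do not overlap here. Id4 lies at chr17:16598244-16598543 on the minus strand and Id1 at chr3:161671314-161671613 on the plus strand.
Id4: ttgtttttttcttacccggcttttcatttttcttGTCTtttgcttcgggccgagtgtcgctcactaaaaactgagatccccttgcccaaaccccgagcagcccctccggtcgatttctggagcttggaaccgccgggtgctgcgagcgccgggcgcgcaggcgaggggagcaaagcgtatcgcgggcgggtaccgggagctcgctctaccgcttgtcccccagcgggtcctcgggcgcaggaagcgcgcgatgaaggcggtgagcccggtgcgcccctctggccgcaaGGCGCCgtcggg
Id1: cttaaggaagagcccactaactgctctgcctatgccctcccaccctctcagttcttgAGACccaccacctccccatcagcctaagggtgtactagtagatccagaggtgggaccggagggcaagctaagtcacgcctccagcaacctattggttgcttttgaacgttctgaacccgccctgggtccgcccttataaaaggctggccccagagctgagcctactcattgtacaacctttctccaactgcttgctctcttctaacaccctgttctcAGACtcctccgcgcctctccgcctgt

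The Id4 window holds 1 Smad box and 1 GGCGCC, which lies after the annotated start, and the Id1 window 2 Smad boxes and no GGCGCC. Windows of Id2 and Id3 hold 1 and 0 Smad boxes and no GGCGCC. Of all 33469 promoters of this length in the table, 88.8% hold at least 1 Smad box, 65.5% hold at least 2, and 11% hold GGCGCC. Smad boxes are thus common in such windows and GGCGCC less so. Of the 45 member genes with a promoter in the table, 14 (31.1%) hold GGCGCC. That share and the 11% are not like for like: 1 window was kept per member gene, and GC content was not matched. No excess is read from them. GC content was 65% in the Id4 window, 58% in that of Id3, 65.3% in that of Id2 and 55.7% in that of Id1. The median over all promoters was 51.7%.

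**Figure D3:**
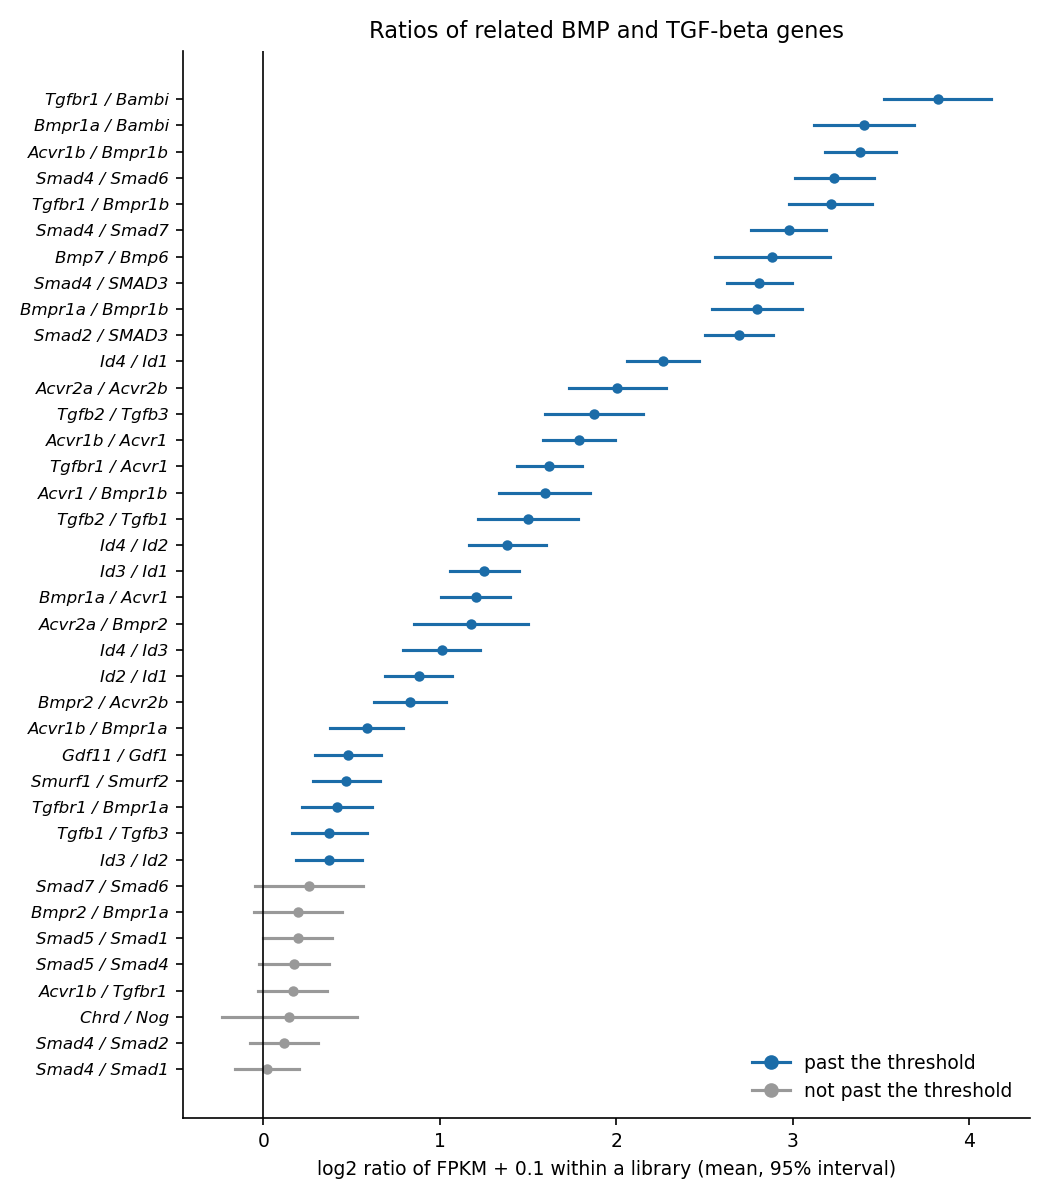
Mean log2 ratio within a library, with its 95% interval, of the 38 tested pairs of related genes, the higher gene named first. The 30 pairs past the threshold (blue) run down to Id3 over Id2 at 0.37, and the 8 others (grey) have intervals that reach 0.

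Of the 69 planned pairs, 38 had both genes at 0.5 FPKM or more, and 30 of these (78.9%) differed past the threshold in limma's test BH-adjusted over the 38. The 8 that did not are Acvr1b and Tgfbr1, Bmpr2 and Bmpr1a, Smad5 and Smad1, Smad4 with each of Smad1, Smad2 and Smad5, Smad7 and Smad6, and Chrd and Nog. Many pairs share a gene and are not independent, and errors of transcript length or mapping that all libraries share are not in these intervals.

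The libraries were then compared for single genes. Over the 35 genes with a mean of at least 1 FPKM, the median coefficient of variation was 6.54%, against 9.18% over the 11662 tested entries at that level. Bmpr2 deviated most downward in library 2, at 17.5 FPKM against 23.0 and 24.5 in libraries 1 and 3 (log2 deviation -0.44). It was the only one of these 35 genes below the 5th percentile of entries at that level (-0.39), and Gdf15 the only one above the 95th (0.42, against 0.41). Acvr2b was likewise lower in library 2 (log2 deviation -0.31), whereas Acvr2a and Acvr1b were not (0.14 and 0.13, against a median of 0.13 over entries at that level).

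Among the Id genes, Id1, Id2 and Id3 had log2 deviations of -0.19, -0.26 and -0.22 in library 2, and Id4 of 0.02, all inside the 5th to 95th percentiles. In the same library the commissural axon markers summed to 172 FPKM, against 245 and 252 in libraries 1 and 3, though Boc among them was not lower (15.7 FPKM, against 15.0 and 15.1). The progenitor markers summed to 1203 FPKM, against 947 and 978, mostly through Fabp7 (686 FPKM, against 492 and 514), and the pan-neuronal markers to 2232 FPKM, against 2086 and 2017. Their part in these deviations was not tested. By the wider percentiles of all tested entries, Bmp4 lay below (-0.72) and Gdf5, Gdf3 and Fst above (0.68, 0.68 and 1.24), all genes under 0.2 FPKM.

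**Figure D4:**
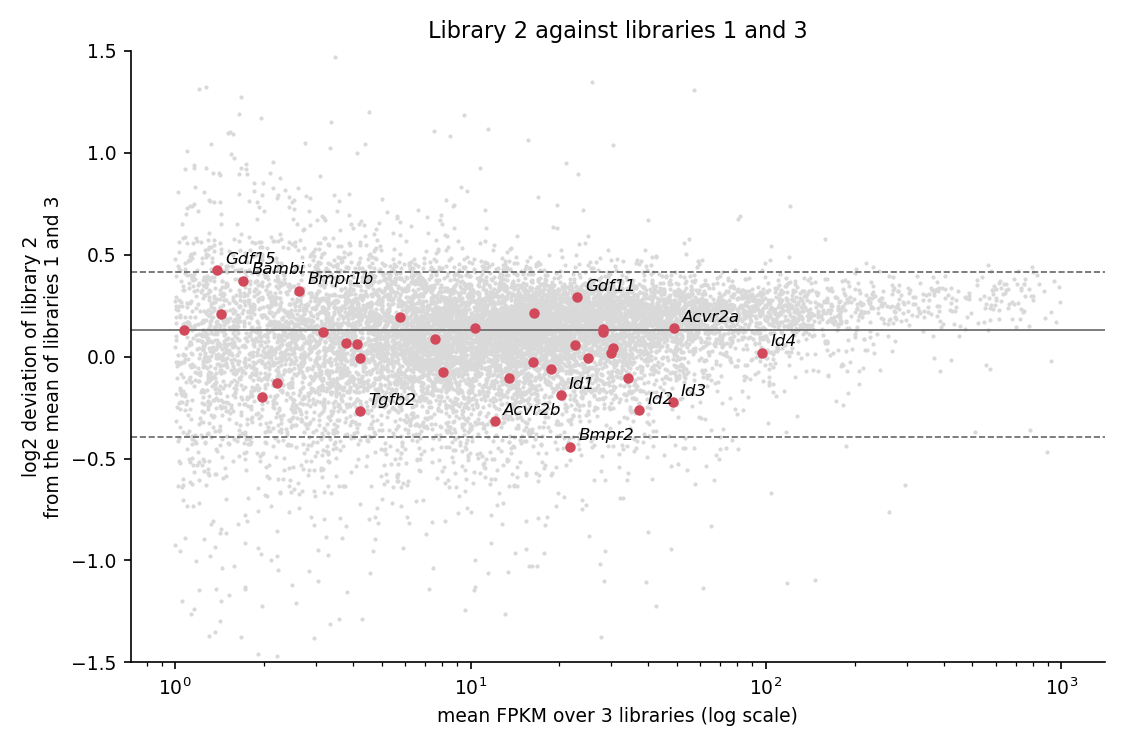
Log2 deviation of library 2 from the mean of libraries 1 and 3 against mean FPKM, for the 35 genes at 1 FPKM or more (red) and other entries at that level (grey; 153 entries beyond 1000 FPKM or a deviation of 1.5 are not drawn). The solid line is the median of entries at that level (0.13) and the dashed lines are their 5th and 95th percentiles; Bmpr2 lies under the lower line.

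Other genes of the pathway, from a list of names beyond the symbol rule, were counted in the same fit. Of 58 matched genes 37 lay above 1 FPKM, 17 were tested and did not, and 4 were at 0 in every library. The 37 are 68.5% of the 54 tested, beside 63.7% of all tested entries, and the median of the 58 was 2.70 FPKM. All 15 Smad partners and modifiers passed, led by Fkbp1a (174 ± 14.2 FPKM), whose protein holds type I receptors inactive, the ubiquitin ligase Nedd4l (46.8 ± 3.56) and the phosphatase Ppm1a (41.9 ± 1.11), with the endosomal adaptor Zfyve16 lowest (3.51 ± 0.101). Of the 7 other receptors and co-receptors 3 passed: the BMP co-receptors Rgmb (113, 112 and 104 FPKM) and Rgma (57.5, 61.8 and 56.7 FPKM) and the receptor they bind, Neo1 (43.9, 38.7 and 45.0 FPKM). Id4, the highest member by the symbol rule, averaged 97.1 ± 2.53 FPKM beside these. Hfe2, another relative of Rgma, was the lowest of the 7, at 0, 0 and 0.02.

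Of 6 non-Smad transducers 5 passed, led by Limk1 (54.7 ± 4.13 FPKM), a kinase that binds the tail of Bmpr2 and acts on cofilin, with the adaptors Tab2 (23.4 ± 1.12) and Tab1 (22.0 ± 2.02). Map3k7, the kinase that the Tab proteins activate, has 2 entries in the table, at 0.580, 0.490 and 0.700 FPKM and at 0.0800, 0.130 and 0.110 FPKM. The higher entry was counted and did not pass; how reads were shared between the entries is not given in the sources used here. Of 16 other antagonists and carriers 7 passed, led by the BMP-binding proteins Twsg1 (21.3 ± 0.762) and Nbl1 (20.3 ± 4.27) and by Fstl1 (9.69 ± 1.71), a follistatin relative, with Ltbp2 and Chrdl2 lowest at a mean of 0.0167 FPKM each. Of the 9 other ligands 2 passed, the inhibin subunits Inhbb (2.70 ± 0.0866) and Inha (2.09 ± 0.620); Amh had 0.187 ± 0.125, and Nodal, Lefty1, Mstn and Inhbc were listed at 0 in every library. All 5 further target genes passed, led by Ctgf (12.7 ± 1.69), Msx1 (4.66 ± 0.295) and Hey1 (1.98 ± 0.175), with Atoh8 lowest (1.45 ± 0.101). Msx1 is also on the list of roof plate markers.

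The symbol rule also caught 3 genes by name alone: Bmp2k, a kinase that BMP2 induces (10.4 ± 0.593 FPKM), Tgfbrap1, a vesicle tethering factor (7.56 ± 0.284), and Tgfb1i1, a focal adhesion adaptor (4.14 ± 0.116). All passed, and without them 31 of 52 tested genes did.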

How the data were processed

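The deposited file is 1 table of FPKM, made by the authors, in which each of 3 libraries has a column. Stranded libraries of polyadenylated RNA were read with paired reads of 50 bp, per the labels' protocols. FastQC, Trimmomatic 0.22, STAR and build rn6 are named in the submitters' processing notes; how FPKM was computed is not given in the sources used here. No counts were given, so the depth is unknown and no counting intervals were computed. Summed FPKM was 19897900 to 26236600, and 430187 to 477484 without entries above 10000 FPKM.

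Values were used as log2(FPKM + 0.1). limma 3.58.1 (R 4.3.3, statmod 1.5.0) tested each of 17611 entries above 0 in any library against 1 FPKM, one-sided, with a robust prior and trend, and 38 pairs of genes by their log2 ratio within a library, two-sided, with a robust prior. P-values were adjusted by Benjamini-Hochberg with a threshold of 0.05. Both tests were checked on simulated data. The genes, lists and pairs were chosen with earlier results of these data known. Every gene found by the symbol rule is given, and of each other pathway list the 3 highest and the lowest are named. Single genes of the marker lists, and Cers1, Upf1, Orc4, Ppie and Uqcrq, were picked once their values were known. Of 59 pathway genes on the lists, 1 matched no symbol; further pathway genes are not reported here. Figures were drawn with matplotlib 3.10.9. Alternatives were other pseudocounts, scalings, filters, levels and priors, and each library left out; rescaling to a sum of 1000000 was chosen after seeing the data.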

Additional observations from a re-analysis of the deposited data

How the results depend on the processing

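The count of 34 genes above 1 FPKM was 32 to 34 with each library left out, 34 under both other pseudocounts, both common scalings, the other prior and the other filters, and 37 against 0.5 FPKM. It was 22 against 5 FPKM and 5 with each library rescaled to a sum of 1000000; leaving the entries above 10000 FPKM out of that sum gave 37. Most of the sum is held by those entries, so 1 FPKM is a different level on each scale. The 37 other pathway genes were 7 with a sum of 1000000, 25 against 5 FPKM and 36 to 39 under the remaining alternatives. Of the 30 pairs, 29 to 31 passed with a library left out (28 to 30 of them the same pairs), 24 against a difference of at least 1.5-fold, 33 with a pseudocount of 1, where Smad5 over Smad1, Smad7 over Smad6 and Bmpr2 over Bmpr1a passed as well, and 47 of 55 when pairs with both genes above 0 in every library were tested. No pair changed direction past the threshold. With a library left out, the variance comes largely from other entries or pairs, so single calls gained or lost there are uncertain. Ratios of genes were taken within each library, but libraries could not be paired between groups because there is 1 group. Only 3 libraries and FPKM without counts limit what can be said of genes near or below 1 FPKM.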
